A study of Mus musculus with 31 samples.

Results

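The chemokine genes *Cxcl1*, *Cxcl2*, *Cxcl3* and *Cxcl16* were followed through both RNA-seq experiments of a study of tau and the DNA sensor cGAS in mice. These 4 genes were found by gene name among the 54532 genes of the microglial count table and by the same gene identifier among the 48795 genes of the hippocampal table. They were chosen by the measured changes of *Cxcl1* and *Cxcl3* in cultured microglia, which tau fibrils and HT-DNA moved differently, so the values in the wild-type cultures are given as a description without a p-value. Tests were made within *Cgas*-/- cultures and in the hippocampi, on the reading that the choice rested on the wild-type cultures. The choice named no genotype, so the *Cgas*-/- comparison of tau with HT-DNA may test the trait that chose the genes. The responses of the *Cgas*-/- cultures were known from earlier results of these data, and their tests are therefore not independent support.

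Primary microglia came from cortices of newborn pups, grown as mixed glial cultures with GM-CSF, and were WT or *Cgas*-/-. By their labels, cells of each genotype received vehicle, tau fibrils (tau) or herring testis DNA (HT-DNA), a double-stranded DNA used to engage cGAS. Each of the 6 groups held 3 libraries. The study describes its control cells as untreated and isolated RNA 6 h after stimulation. Legends of the study call the 3 samples per condition biologically independent. They do not state whether these samples came from separate cultures. The p-values in microglia therefore measure the spread between these libraries, which may be technical. Hippocampi came from mice of 8 to 9 months, 7 non-transgenic (Ntg, 3 female and 4 male) and 6 *P301S* (3 female and 3 male). *P301S* mice carry a human mutant tau transgene that the mouse prion promoter drives. The *Cgas* genotype of the hippocampal mice was not stated in the sample labels. Each hippocampal library was made from the 3' ends of transcripts of 1 mouse.

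Total counts per library were 17037459 to 25174764 in microglia and 25953296 to 35779977 in hippocampi. Values below are raw counts or normalized CPM, in which a count is set against the total of its library after scaling with the trimmed mean of M-values (TMM). *Cgas* itself, listed under its older symbol *Mb21d1*, had 434 to 812 counts in WT libraries and 71 to 180 in *Cgas*-/- libraries, so its transcript was reduced and not absent. *Mapt*, whose reads can hold transgene sequence, was at 519 to 642 CPM in Ntg and 858 to 1125 CPM in *P301S* hippocampi. The summed level of 9 microglial markers was 6212 to 6486 CPM in WT and 3683 to 4159 CPM in *Cgas*-/- cultures. The *Cgas*-/- cultures were also lower in the endothelial sum (20.8 to 28.3 against 87.5 to 280 CPM), the astrocyte sum (1.14 to 2.60 against 4.67 to 13.7 CPM) and the fibroblast sum (0.052 to 0.441 against 1.09 to 5.65 CPM). Within WT cultures, the endothelial sum was 87.5 to 98.8 CPM with vehicle and 277 to 280 CPM with HT-DNA. The astrocyte sum was 4.67 to 5.89 and 10.6 to 13.7 CPM there, so both sums moved with treatment too. Of the 6 endothelial genes, 2 were expressed enough to test. The sums need not be cell numbers, and genotype and culture composition cannot be told apart in these libraries.

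Chemokines are small secreted proteins that guide leukocytes along a gradient. *Cxcl1*, *Cxcl2* and *Cxcl3* belong to the CXC chemokines with a glutamate-leucine-arginine (ELR) motif, which bind CXCR2 on neutrophils and draw them from blood into inflamed tissue. Their genes are typical targets of NF-kappaB downstream of Toll-like receptors, IL-1 and TNF, and their messages are short-lived. *Cxcl16* is a CXC chemokine of another kind: it lacks the ELR motif, is made as a membrane protein with a chemokine domain on a stalk, is shed by the proteases ADAM10 and ADAM17, and binds CXCR6, a receptor of T cells and natural killer T cells. It is no classic neutrophil attractant, so the name of the group covers 3 of its 4 genes.

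*Cxcl3* (ENSMUSG00000029379), *Cxcl1* (ENSMUSG00000029380) and *Cxcl2* (ENSMUSG00000058427) lie on the plus strand of chromosome 5 in the GRCm38 annotation, at chr5:90786103-90789600, chr5:90891241-90893115 and chr5:90903871-90905938. The gap from *Cxcl3* to *Cxcl1* is 101640 bases and holds 4 annotated genes, and the gap from *Cxcl1* to *Cxcl2* is 10755 bases and holds 1. The ELR chemokine gene *Cxcl15* lies between *Cxcl3* and *Cxcl1*, and the ELR chemokine gene *Cxcl5* and the platelet chemokine genes *Ppbp* and *Pf4* lie before *Cxcl3*. *Cxcl16* (ENSMUSG00000018920) lies apart on the minus strand at chr11:70453983-70459984.

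The promoter windows of *Cxcl3*, *Cxcl1* and *Cxcl2* are shown because these neighbouring genes share regulatory letters but not their response to HT-DNA. They run from 250 bases before to 50 bases after the RefSeq transcription start in GRCm38.p6 on the plus strand, at chr5:90785851-90786150, chr5:90890995-90891294 and chr5:90903649-90903948. Capitals mark a palindromic kappaB element, where matches to the kappaB consensus on both strands overlap, and a TATA-like ATAAAAG.
Cxcl3: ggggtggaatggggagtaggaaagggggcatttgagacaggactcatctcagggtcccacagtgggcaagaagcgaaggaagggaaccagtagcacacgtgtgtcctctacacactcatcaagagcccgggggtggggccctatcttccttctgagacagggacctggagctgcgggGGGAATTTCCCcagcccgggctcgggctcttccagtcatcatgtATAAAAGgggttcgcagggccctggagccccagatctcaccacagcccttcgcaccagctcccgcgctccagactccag
Cxcl1: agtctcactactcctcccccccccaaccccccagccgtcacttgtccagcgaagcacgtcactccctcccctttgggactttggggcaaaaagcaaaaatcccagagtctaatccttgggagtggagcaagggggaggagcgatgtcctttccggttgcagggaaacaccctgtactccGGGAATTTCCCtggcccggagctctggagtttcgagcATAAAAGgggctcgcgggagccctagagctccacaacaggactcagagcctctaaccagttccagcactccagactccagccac
Cxcl2: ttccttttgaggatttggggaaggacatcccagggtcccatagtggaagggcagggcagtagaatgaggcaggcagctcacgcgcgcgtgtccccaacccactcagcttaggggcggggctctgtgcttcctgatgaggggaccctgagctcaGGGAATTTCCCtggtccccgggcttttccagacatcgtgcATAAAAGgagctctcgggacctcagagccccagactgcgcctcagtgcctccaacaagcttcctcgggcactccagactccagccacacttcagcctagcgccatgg
The 11 letters GGGAATTTCCC were in all 3 windows, with the start as base 0, at bases -73 to -63 in *Cxcl3*, -71 to -61 in *Cxcl1* and -97 to -87 in *Cxcl2*. They were in 14 of 32851 RefSeq promoter windows of this length (0.0426%), and the kappaB consensus alone was in 8.46%. ATAAAAG, searched after the windows had been read, was in 5.42% of all windows, and TATAAA, which overlaps it in *Cxcl3*, was in 13.6%. Neither an AP-1 site (TGANTCA, in 7.81% of all windows) nor an interferon response core (GAAANNGAA, in 8.56%) was found in any of the 3 windows, with both strands searched. The windows were 57.2% to 62.7% identical in pairs, with a GC content of 58.7% to 61%. A match of letters is a description and does not show binding.

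The 3' UTRs differed in the pentamer ATTTA, the core of the AU-rich elements that proteins such as ZFP36 bind in short-lived messages. *Cxcl1* held 7 in 592 bases (11.8 per kilobase), *Cxcl2* held 11 in 1494 bases (7.36 per kilobase) and *Cxcl3* held 5 in 645 bases (7.75 per kilobase). Of 19925 genes, 0.472%, 2.51% and 2.10% were at least as dense. *Cxcl16* held 2 in 1421 bases (1.41 per kilobase), a density that 48.8% of genes reached.

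Read sharing was examined because the annotated sequences of near copies can split reads. Of 50-base stretches in its transcripts, *Cxcl1* shared none with another gene, *Cxcl2* and *Cxcl3* shared 126 with each other, and *Cxcl3* shared 154 in all, with 78 other genes. The last 500 bases of their coding transcripts were unshared. *Cxcl16* overlaps *Zmynd15* on the opposite strand over 552 exon bases. *Zmynd15* had 61 to 463 counts in microglia and 0 to 40 in hippocampi, and whether strand was used in counting is not given in the sources used here, so reads of the overlap may be assigned to either gene.

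In WT microglia, every tau library stood above every vehicle library for each of the 4 chemokines. With HT-DNA, *Cxcl1* and *Cxcl2* stood above vehicle, *Cxcl3* stood below it and *Cxcl16* overlapped it. *Cxcl1* had 0, 0 and 0 counts with vehicle, 37, 23 and 22 with tau and 3, 3 and 6 with HT-DNA. All 3 vehicle libraries were empty, and the tau and HT-DNA libraries did not overlap. With a floor of 3 counts per library (0.142 CPM on average), mean *Cxcl1* was at least 10-fold higher with tau and at least 1.54-fold higher with HT-DNA than with vehicle. HT-DNA replicates 1 and 2 were themselves at 3 counts, so the bound for HT-DNA rests on replicate 3. Floors and counting intervals cover counting error only. *Cxcl1* was a low message, at 1.42 ± 0.523 CPM with tau (SD, n = 3) and 0.217 ± 0.0955 CPM with HT-DNA.

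*Cxcl2* had 72, 91 and 75 counts with vehicle, 583, 535 and 709 with tau and 100, 94 and 145 with HT-DNA in WT cells. The normalized levels were 3.72 ± 0.466, 31.3 ± 5.75 and 6.14 ± 1.55 CPM, and no 2 of these groups overlapped. The log2 fold change against vehicle was 3.07 (SE 0.16) with tau and 0.72 (SE 0.20) with HT-DNA.

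*Cxcl3* had 34, 52 and 28 counts with vehicle, 201, 209 and 244 with tau and 8, 9 and 5 with HT-DNA in WT cells. Its levels were 1.76 ± 0.428 CPM with vehicle, 11.2 ± 1.40 CPM with tau and 0.397 ± 0.111 CPM with HT-DNA. All 3 HT-DNA libraries lay below all 3 vehicle libraries, and all tau libraries lay above. The log2 fold change was 2.65 (SE 0.20) with tau and -2.14 (SE 0.35) with HT-DNA, so that tau exceeded HT-DNA by 4.79 (SE 0.27). For *Cxcl1* and *Cxcl2*, tau exceeded HT-DNA by a log2 fold change of 2.66 (SE 0.46) and 2.35 (SE 0.15).

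*Cxcl16* had 5832, 5450 and 4417 counts with vehicle, 7579, 8627 and 7686 with tau and 4345, 4532 and 4729 with HT-DNA in WT cells. After scaling, vehicle and HT-DNA overlapped at 244 ± 12.4 and 246 ± 11.3 CPM, and tau stood above both at 407 ± 7.63 CPM. The log2 fold change was 0.74 (SE 0.051) with tau and 0.01 (SE 0.052) with HT-DNA. Its response to tau was smaller than the log2 fold change of 1 used for calls.

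**Figure D1:**
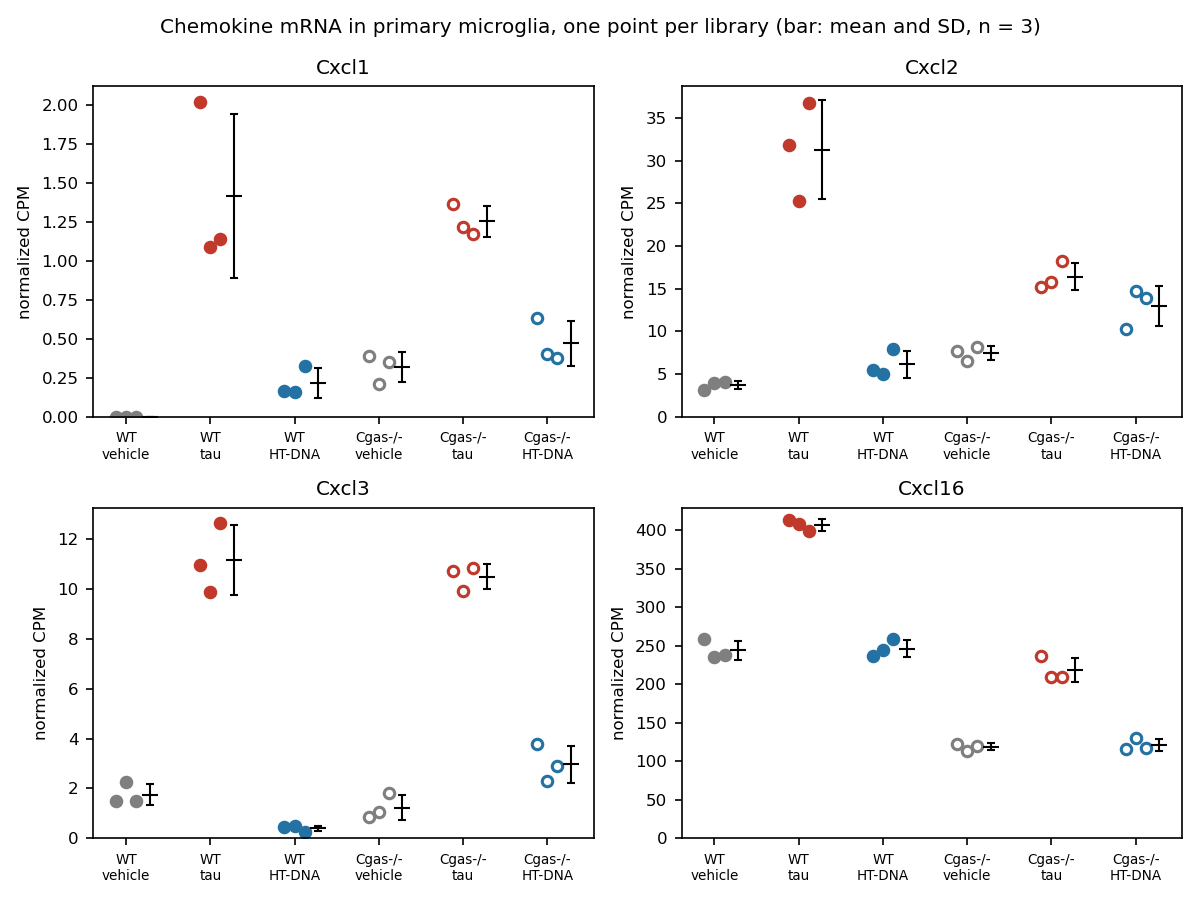
Normalized CPM of *Cxcl1*, *Cxcl2*, *Cxcl3* and *Cxcl16* in each of the 18 microglial libraries, with a linear axis from 0 in each panel. Points are libraries (filled WT, open *Cgas*-/-; grey vehicle, red tau, blue HT-DNA), and bars give the mean and SD of 3 libraries; *Cxcl3* is lowest with HT-DNA in WT cells (0.397 CPM) and *Cxcl16* is lower in *Cgas*-/- than in WT cells in each treatment.

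A gene was called in microglia when its log2 fold change was beyond 1 and its adjusted p below 0.05 (edgeR's quasi-likelihood test, Benjamini-Hochberg over 13675 genes). With tau in WT cells, 395 genes (2.89%) were called higher and 72 (0.527%) lower, and *Cxcl1*, *Cxcl2* and *Cxcl3* had a log2 fold change above 1. With HT-DNA in WT cells, 723 genes (5.29%) were called higher and 382 (2.79%) lower, and of the 4 chemokines *Cxcl3* had a log2 fold change below -1, while the lower bound of *Cxcl1* and the values of *Cxcl2* and *Cxcl16* lay within 1. Both comparisons share the vehicle libraries and were used to choose the genes, and nothing is read from these numbers.

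In *Cgas*-/- microglia, tau fibrils upregulated *Cxcl1*, *Cxcl2* and *Cxcl3*. *Cxcl1* had 7, 4 and 8 counts with vehicle and 31, 29 and 30 with tau. The levels were 0.317 ± 0.0960 and 1.25 ± 0.102 CPM without overlap, a log2 fold change of 1.96 (SE 0.42). The filter kept genes that reached 0.472 CPM in at least 3 libraries. *Cxcl1* reached it in all 6 tau libraries, in 1 *Cgas*-/- HT-DNA library and in no other, so it passed through the groups where it was high, and no p from the filtered genes is given for it. In the fit without the filter, its log2 fold change was 1.95 (SE 0.47, adjusted p = 0.000803 by edgeR). *Cxcl2* rose from 137, 126 and 187 counts (7.48 ± 0.841 CPM) to 345, 378 and 466 (16.4 ± 1.59 CPM), a log2 fold change of 1.13 (SE 0.15, adjusted p = 1.26e-06 by edgeR). Its groups did not overlap.

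*Cxcl3* had the largest log2 fold change of the 4 genes with tau in *Cgas*-/- cells, from 15, 20 and 41 counts (1.23 ± 0.509 CPM) to 243, 237 and 277 (10.5 ± 0.493 CPM). Its log2 fold change was 3.05 (SE 0.21, adjusted p = 3.10e-12 by edgeR). *Cxcl16* had 2192, 2177 and 2723 counts with vehicle and 5357, 4982 and 5358 with tau, or 119 ± 4.57 and 218 ± 15.6 CPM. Its log2 fold change of 0.88 (SE 0.053, adjusted p = 1.82e-13 by edgeR) was precise but below the minimum for a call. Leaving *Cxcl1* aside for its passage through the filter, *Cxcl2* and *Cxcl3* were called higher and *Cxcl16* was not, where 336 genes (2.46%) were called higher and 38 (0.278%) lower.

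Few genes passed both thresholds with HT-DNA in *Cgas*-/- cells, and *Cxcl3* was among them. Of 13675 genes, 2 (0.0146%) were called higher and 1 (0.00731%) lower, while 180 passed the adjusted p alone and 1688 had an unadjusted p under 0.05. The called genes were *Cxcl3*, the small Cajal body RNA gene *Gm22009* (from 0.232 to 3.55 CPM, log2 fold change 3.84, SE 0.90, adjusted p = 0.0252 by edgeR) and, lower, the long non-coding RNA gene *A130077B15Rik* (log2 fold change -1.16, SE 0.27, adjusted p = 0.0259 by edgeR), both named after their values were seen. *Cxcl3* had 71, 57 and 69 counts with HT-DNA against 15, 20 and 41 with vehicle. The groups did not overlap at 2.98 ± 0.742 and 1.23 ± 0.509 CPM, with a log2 fold change of 1.22 (SE 0.24, adjusted p = 0.00799 by edgeR). This call rests on single libraries: the adjusted p was 0.0571 without HT-DNA replicate 1 and 0.0802 without vehicle replicate 1, with a log2 fold change of 1.02 in both.

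*Cxcl2* had 194, 367 and 332 counts with HT-DNA in *Cgas*-/- cells (12.96 ± 2.36 CPM), against 137, 126 and 187 with vehicle. Its log2 fold change of 0.80 (SE 0.16, adjusted p = 0.00599 by edgeR) was below the minimum for a call, and without HT-DNA replicate 2 it was 0.70 (adjusted p = 0.0640). *Cxcl1* had 12, 10 and 9 counts with HT-DNA (0.471 ± 0.143 CPM). Its log2 fold change was 0.53 with a 95% interval of -0.46 to 1.52, so a difference was not detectable at this depth. *Cxcl16* had 2191, 3243 and 2817 counts (121 ± 7.66 CPM). Its log2 fold change of 0.03 had a narrow interval of -0.076 to 0.145 (adjusted p = 0.868 by edgeR).

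Both stimuli were then compared directly within *Cgas*-/- cells. Tau exceeded HT-DNA for *Cxcl3* (log2 fold change 1.84, SE 0.18, adjusted p = 4.84e-09 by edgeR), a call made for 326 genes (2.38%). For *Cxcl1*, the difference was 1.42 (SE 0.39), and 1.41 (SE 0.44, adjusted p = 0.0193 by edgeR) without the filter on low counts. With the filter, it did not pass the adjusted p without HT-DNA replicate 2 (1.32) or replicate 3 (1.29). The excess of *Cxcl1* thus rests on these libraries. *Cxcl2* did not pass, with a difference of 0.33 and a 95% interval of 0.047 to 0.618 (adjusted p = 0.112 by edgeR). *Cxcl16* was higher with tau by 0.85 (SE 0.053, adjusted p = 3.97e-13 by edgeR), below the minimum for a call. These contrasts share libraries with those against vehicle, and they may test the trait that chose the genes.

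**Figure D2:**
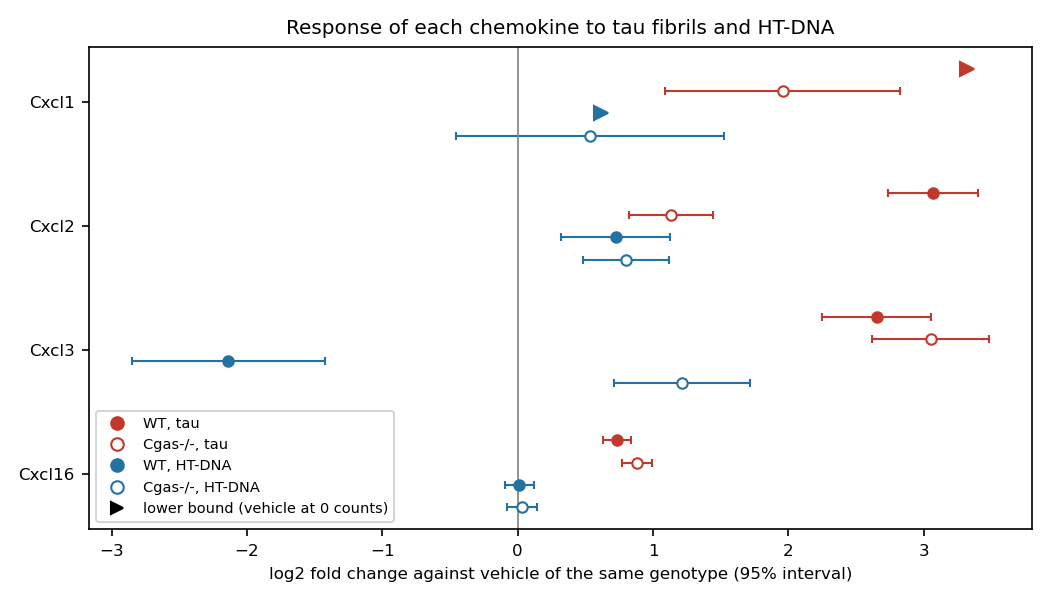
Log2 fold change of each chemokine with tau (red) or HT-DNA (blue) against vehicle of the same genotype, with WT filled and *Cgas*-/- open; bars are 95% intervals. Triangles are the lower bounds of *Cxcl1* in WT cells, whose vehicle libraries were at 0 counts, and *Cxcl3* with HT-DNA lies at -2.14 in WT and 1.22 in *Cgas*-/- cells.

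The response of *Cxcl3* to HT-DNA had opposite signs in the 2 genotypes, and that of *Cxcl2* to tau was smaller in *Cgas*-/- cells. The *Cgas*-/- response minus the WT response to HT-DNA was 3.35 (SE 0.42) for *Cxcl3*, 0.08 (SE 0.25) for *Cxcl2* and 0.02 (SE 0.075) for *Cxcl16* on the log2 scale. For tau, it was -1.94 (SE 0.23) for *Cxcl2*, 0.40 (SE 0.31) for *Cxcl3* and 0.14 (SE 0.074) for *Cxcl16*. For *Cxcl1*, no such difference can be given, because its WT vehicle level was at the floor. These values include the libraries that chose the genes and carry no test.

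The genotypes were also set side by side within each treatment. With vehicle, the *Cgas*-/- minus WT difference in log2 was 1.01 (SE 0.19) for *Cxcl2*, -0.49 (SE 0.27) for *Cxcl3* and -1.04 (SE 0.053) for *Cxcl16*, and *Cxcl1* was at least 2.24-fold higher in *Cgas*-/- cells. With tau, the difference was -0.17 (SE 0.34) for *Cxcl1*, -0.93 (SE 0.13) for *Cxcl2*, -0.09 (SE 0.16) for *Cxcl3* and -0.90 (SE 0.051) for *Cxcl16*, and the sign turned for *Cxcl1* without WT tau replicate 1 (0.17) and for *Cxcl3* without WT tau replicate 3 (0.01). With HT-DNA, it was 1.07 (SE 0.52) for *Cxcl1*, 1.09 (SE 0.16) for *Cxcl2*, 2.86 (SE 0.32) for *Cxcl3* and -1.02 (SE 0.053) for *Cxcl16*. *Cxcl16* was thus lower in *Cgas*-/- cultures under every treatment, by about the same amount, and the microglial marker sum was lower in them too. In bulk RNA, fewer cells of a type and less RNA per cell cannot be told apart, and the part of culture composition in these differences was not tested.

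Ranked by level, *Cxcl1* was lowest in WT vehicle, followed by WT HT-DNA, *Cgas*-/- vehicle and *Cgas*-/- HT-DNA, whose libraries overlapped from one to the next, and then by *Cgas*-/- tau and WT tau, which overlapped each other. *Cxcl2* went from WT vehicle through WT HT-DNA and *Cgas*-/- vehicle, an overlapping pair, to *Cgas*-/- HT-DNA, *Cgas*-/- tau and WT tau, each apart from the next. *Cxcl3* was lowest in WT HT-DNA, followed by both vehicle groups, which overlapped, *Cgas*-/- HT-DNA, and both tau groups, which overlapped. *Cxcl16* was lowest in *Cgas*-/- vehicle and HT-DNA, followed by *Cgas*-/- tau, WT vehicle and WT HT-DNA, overlapping in turn, and highest in WT tau.

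Of the markers that define neutrophils, *Ly6g* and *S100a9* had 0 counts in all 18 microglial libraries, and *S100a8* had 54 to 134 counts. The summed level of 10 neutrophil markers was 28.2 to 36.3 CPM in WT and 12.7 to 20.8 CPM in *Cgas*-/- cultures. Most of it was *Csf3r*, the gene of the G-CSF receptor, which microglia also express. The group means of *Csf3r* were 26.6 to 31.8 CPM in WT and 9.13 to 14.03 CPM in *Cgas*-/- cultures. Those of *S100a8* went the other way, at 3.36 to 3.46 CPM and 4.48 to 4.84 CPM. The part of neutrophils in this sum was not tested. The chemokine receptors were near the floor, with 0 to 9 counts of *Cxcr2*, 0 to 8 of *Cxcr6*, 0 to 2 of *Cxcr1* and 0 of the scavenging receptor *Ackr1* per library. None of the 4 receptor genes passed the filter on low counts.

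Among the cytokines that induce or accompany these chemokines, 3 of 6 were expressed enough to test, and all 3 rose with tau in WT cells (median log2 fold change 2.09, against -0.01 over all genes tested). *Il1b*, which encodes interleukin-1 beta, rose from 0.527 to 19.4 CPM (log2 fold change 5.18, SE 0.28), *Tnf* from 21.8 to 93.0 CPM (2.09, SE 0.10) and *Il1a* from 12.5 to 32.4 CPM (1.36, SE 0.10). With HT-DNA, *Tnf* (to 104 CPM, 2.25, SE 0.10) and *Il1b* (to 1.31 CPM, 1.29, SE 0.43) rose, and *Il1a* changed by 0.58 (SE 0.11), below the minimum for a call. In WT cells, *Tnf* differed between tau and HT-DNA by -0.17 (SE 0.091, adjusted p = 0.169 by edgeR), whereas *Il1b* was higher with tau by 3.89 (SE 0.25, adjusted p = 6.03e-13 by edgeR).

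In *Cgas*-/- cells, 1 of these 3 cytokine genes rose with tau, *Il1b* from 1.09 to 12.4 CPM (3.48, SE 0.26), while *Tnf* (0.69, SE 0.10) and *Il1a* (0.48, SE 0.084) were below the minimum for a call. With HT-DNA, 0 of 3 were called by edgeR in *Cgas*-/- cells, where 2 had an unadjusted p under 0.05, DESeq2 called 1 and limma-voom 0. The value for *Tnf* was 0.54 (SE 0.10). In edgeR's interaction test, the *Cgas*-/- response to tau minus the WT response was -1.40 for *Tnf* (SE 0.15, adjusted p = 1.59e-07) and -1.69 for *Il1b* (SE 0.47, adjusted p = 0.0246), and that to HT-DNA was -1.71 for *Tnf* (SE 0.15, adjusted p = 2.88e-10).

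Of 13 genes for transcription factors, their feedback inhibitors and mRNA decay proteins, 1 rose with tau in WT cells and 4 rose with HT-DNA. *Nfkbia*, the inhibitor that NF-kappaB induces, rose with both (1.25, SE 0.073, and 1.30, SE 0.073). The 3 that rose with HT-DNA alone by these thresholds were *Zfp36*, which binds AU-rich elements (1.53, SE 0.060), *Tnfaip3*, which encodes the deubiquitinating feedback protein A20 (1.20, SE 0.063), and *Zc3h12a*, which encodes the endoribonuclease Regnase-1 (1.07, SE 0.075). With tau, the values of the same 3 genes were 0.77 (SE 0.061), 0.74 (SE 0.063) and 0.78 (SE 0.076). Tau minus HT-DNA was -0.77 (SE 0.058, adjusted p = 1.86e-11), -0.46 (SE 0.061, adjusted p = 5.65e-07) and -0.29 (SE 0.072, adjusted p = 0.00214) by edgeR, below the minimum for a call. The median of the list was 0.38 with tau and 0.60 with HT-DNA.

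In *Cgas*-/- cells, edgeR called 0 of these 13 genes with either stimulus, as did DESeq2 and limma-voom, and 7 and 8 had an unadjusted p under 0.05. *Nfkbia* was at 0.64 (SE 0.072) with tau and 0.25 (SE 0.073) with HT-DNA, and *Zfp36* at 0.02 (SE 0.062) and 0.13 (SE 0.062). The *Cgas*-/- minus the WT response to HT-DNA was -1.40 for *Zfp36* (SE 0.086, adjusted p = 7.00e-13) and -1.05 for *Nfkbia* (SE 0.10, adjusted p = 3.43e-09) by edgeR. Calls needed a log2 fold change beyond 1, so smaller changes such as that of *Nfkbia* with tau were not counted. The part of these genes in the upregulation of *Cxcl1*, *Cxcl2* and *Cxcl3* with tau was not tested.

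**Figure D3:**
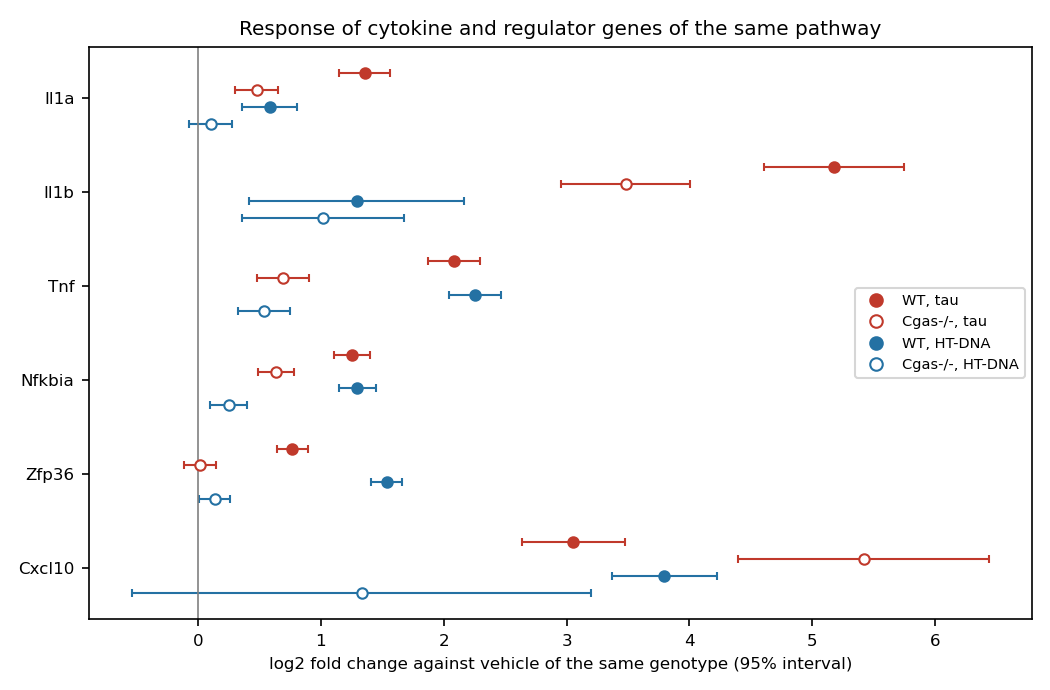
Log2 fold change of 3 cytokine genes, of the feedback genes *Nfkbia* and *Zfp36* and of *Cxcl10* with tau (red) or HT-DNA (blue) against vehicle of the same genotype, with WT filled and *Cgas*-/- open; bars are 95% intervals. *Il1b* responds to tau in both genotypes (5.18 and 3.48), whereas *Zfp36* moves from 1.53 with HT-DNA in WT cells to 0.13 in *Cgas*-/- cells.

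The interferon-induced CXC chemokines *Cxcl9*, *Cxcl10* and *Cxcl11*, which bind CXCR3 on T cells, had higher mean levels with HT-DNA than with tau in WT cells, and for *Cxcl11* the difference was called (tau minus HT-DNA -1.52, SE 0.43, adjusted p = 0.00724 by edgeR). *Cxcl10* was at 67.8 CPM with vehicle, 563 CPM with tau and 942 CPM with HT-DNA (log2 fold changes 3.06, SE 0.20, and 3.80, SE 0.21). Tau minus HT-DNA was -0.74 for *Cxcl10* (SE 0.18, adjusted p = 0.00201) and -0.68 for *Cxcl9* (SE 0.33, adjusted p = 0.122) by edgeR, neither of them called. *Cxcl9* was at 0.0771, 2.19 and 3.51 CPM and *Cxcl11* at 0.0983, 0.839 and 2.41 CPM. With tau and with HT-DNA, 3 of 5 tested members of this list were called in WT cells (medians 3.06 and 3.80). In *Cgas*-/- cells, 1 of 5 was called with tau, *Cxcl10* from 0.545 to 23.2 CPM (5.42, SE 0.50), and 0 with HT-DNA by edgeR, DESeq2 or limma-voom, with 0 at an unadjusted p under 0.05. *Cxcl9*, *Cxcl11* and *Cxcl12* had only 0 to 6 counts per library in *Cgas*-/- cells and passed the filter through WT libraries. Nothing is read from the lack of a call for them there. The interferon response core was in none of the 3 promoter windows shown above, where 8.56% of all windows held it, and nothing is read from this.

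Of the enzymes that cut chemokines, edgeR called 0 of 4 in WT cells with tau and 0 with HT-DNA (1 and 3 at an unadjusted p under 0.05; 0 by DESeq2 and limma-voom). *Adam17*, which sheds *Cxcl16* from the membrane, was at 0.63 (SE 0.038) with tau in WT and 0.62 (SE 0.038) in *Cgas*-/- cells, below the minimum for a call as *Cxcl16* itself was. *Mmp9*, whose protein trims ELR chemokines, rose with tau in *Cgas*-/- cells from 4.69 to 12.2 CPM (1.38, SE 0.21), and edgeR called 0 of 4 with HT-DNA, with 0 at an unadjusted p under 0.05 and 0 by DESeq2 and limma-voom. Of the other ELR and platelet chemokines, *Pf4* alone could be tested, and its log2 fold changes were between -0.15 and 0.07 in the 4 comparisons with vehicle. *Cxcl5* had 0 to 2 counts, *Ppbp* 0 to 10 and *Cxcl15* 0 in microglia.

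The genes most like each chemokine across the 18 microglial libraries were ranked by Pearson's r of log2 CPM among 11599 genes with a mean count of at least 20, as a description without a test, since the libraries share their 6 groups. *Cxcl1* was most like *Ehd1* (r = 0.965), *Esd* (0.953) and *Psma6* (0.944). *Cxcl2* was most like *Il1b* (0.939), *Tnfaip2* (0.931) and *Ehd1* (0.918). *Cxcl3* was most like *Srxn1* (0.982), *Gclm* (0.965) and *Alas1* (0.963), where *Srxn1* encodes sulfiredoxin, *Gclm* the modifier subunit of glutamate-cysteine ligase in glutathione synthesis and *Alas1* the first enzyme of haem synthesis. *Cxcl16* was most like *Acsl5* (0.986), *Cpd* (0.982) and *Hcls1* (0.981). Among the 4 chemokines, r was 0.923 between *Cxcl1* and *Cxcl2*, 0.777 between *Cxcl2* and *Cxcl3*, 0.702 between *Cxcl1* and *Cxcl3* and 0.200 to 0.343 between *Cxcl16* and the others.

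In the hippocampus, *Cxcl16* was the one member with reads enough to test. It was higher in *P301S* than in Ntg mice, in 4 of 6 mice by a wide margin. In Ntg mice, it had 24 to 63 counts with a median of 33, or 0.746, 1.23 and 2.08 CPM at the lowest, the median and the highest. In *P301S* mice, it had 30 to 450 counts, or 1.05, 8.15 and 14.9 CPM at the lowest, the median and the highest. Mice 43 and 63, at 1.05 and 2.11 CPM, lay among or just above the Ntg mice, and mice 77, 65, 36 and 29, at 6.02, 10.3, 11.4 and 14.9 CPM, lay above all of them.

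The means were 1.27 ± 0.406 CPM (SD, n = 7) and 7.61 ± 5.47 CPM (n = 6), a log2 fold change of 2.58 (SE 0.49, 95% interval 1.53 to 3.63, adjusted p = 0.0303 by edgeR). A two-sided exact permutation test of the CPM over 1716 splits of the mice gave p = 0.00641. Of 16453 genes, 217 (1.32%) were called higher, here with a log2 fold change beyond 0.5 and an adjusted p below 0.05, and 6 (0.0365%) were called lower. The adjusted p exceeded 0.05 when any 1 of 9 mice was left out (Ntg mice 35, 46, 61, 62, 68 and 71 and *P301S* mice 29, 36 and 65), at 0.0598 to 0.0859. The adjusted p was 0.157 with limma-voom (log2 fold change 2.12) and 4.64e-06 with DESeq2 (2.58). By sex, *Cxcl16* was at 1.07 to 1.34 CPM in Ntg and 1.05 to 11.4 CPM in *P301S* females, and at 0.746 to 2.08 CPM in Ntg and 2.11 to 14.9 CPM in *P301S* males.

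Microglial markers of the tissue, taken as a sum, moved with this result. The summed level of 9 microglial markers, all of which were detected in each library, was 407 to 504 CPM in Ntg mice. In *P301S* mice, it was 424 and 482 CPM in mice 43 and 63, which had the lowest *Cxcl16*, and 770, 1347, 1238 and 1340 CPM in mice 77, 65, 36 and 29. *Cxcl16* as a percentage of that sum was 0.278 ± 0.0904 in Ntg and 0.709 ± 0.316 in *P301S* mice (two-sided exact permutation p = 0.00699), with 4 of 6 *P301S* mice above all Ntg mice. With the mean log level of the markers as a covariate, a model chosen after seeing the data, the log2 fold change of *Cxcl16* was 0.60 (SE 0.35, adjusted p = 0.972 by edgeR). The change differed among the 9 markers, of which edgeR called 2 higher. On average, *C1qa* went from 57.6 to 221 CPM, *C1qb* from 47.1 to 169 CPM and *Csf1r* from 104 to 154 CPM. The *Csf1r* ranges overlapped (91.2 to 117 CPM in Ntg and 97.4 to 208 CPM in *P301S* mice). These genes were named after their values were seen and need not be those called. More microglia, more marker message per microglia and more *Cxcl16* per microglia cannot be told apart in this tissue. The astrocyte sum was 3628 to 4411 CPM in Ntg and 3703 to 7389 CPM in *P301S* mice.

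**Figure D4:**
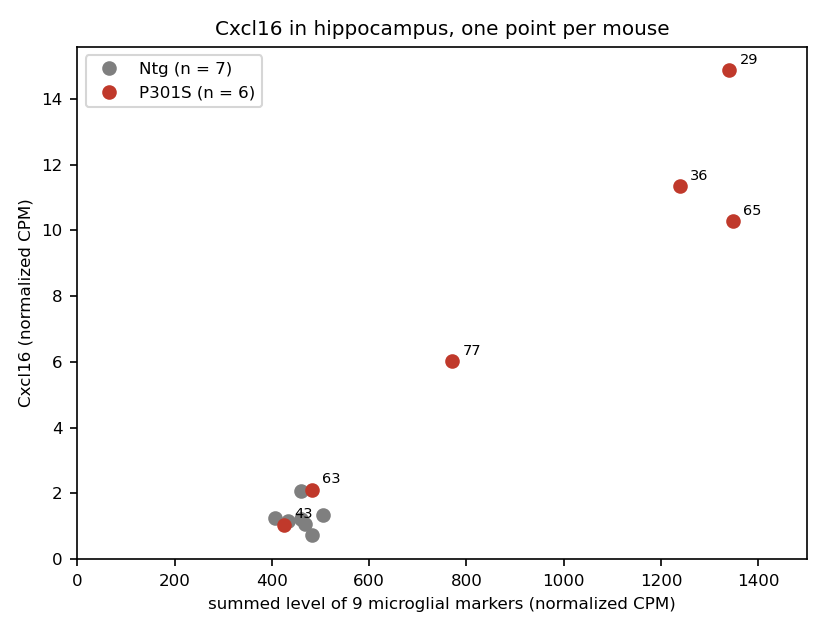
*Cxcl16* in normalized CPM against the summed level of 9 microglial markers in normalized CPM, 1 point per hippocampus (grey Ntg, n = 7; red *P301S*, n = 6, labelled with the mouse number). Mouse 43 lies among the Ntg mice on both axes, mouse 63 lies among them by its markers and just above them by *Cxcl16* (2.11 against at most 2.08 CPM), and mice 77, 65, 36 and 29 lie higher on both.

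The neutrophil attractants were hardly measurable in the hippocampus. *Cxcl2* and *Cxcl3* had 0 counts in all 13 libraries, which allows a level of up to 0.0860 to 0.114 CPM per library by counting error. *Cxcl1* had 0 to 6 counts (median 4) in Ntg and 2 to 11 (median 3.5) in *P301S* mice, and did not pass the filter on low counts. Its levels of 0.130 ± 0.0741 and 0.172 ± 0.123 CPM overlapped (two-sided exact permutation p = 0.469), so a difference was not detectable at this depth.

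Neutrophil markers stayed low beside them. *Ly6g* had at most 1 count, *S100a8* 0 to 13 and *S100a9* 2 to 21 counts per hippocampus. The summed level of 10 neutrophil markers was 5.27 to 8.45 CPM in Ntg and 7.19 to 24.97 CPM in *P301S* mice, most of it *Csf3r*, the G-CSF receptor, which microglia also express (6.10 to 15.5 CPM on average, log2 fold change 1.35, SE 0.27, adjusted p = 0.0303 by edgeR). Their part in the *Cxcl1* and *Cxcl16* values was not tested.

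Among related genes in the hippocampus, the ELR chemokine gene *Cxcl5*, a neighbour of *Cxcl3* on chromosome 5, rose from 0.657 ± 0.432 to 5.13 ± 4.30 CPM (4 to 39 counts in Ntg and 6 to 333 in *P301S* mice, log2 fold change 2.95, SE 0.69, adjusted p = 0.0490 by edgeR). The ranges overlapped. *Cxcl10* rose (4.72, SE 0.72, adjusted p = 0.0151 by edgeR), 1 of 3 other CXC chemokines tested. *Atf3*, a stress-induced transcription factor, rose (2.42, SE 0.39, adjusted p = 0.0169 by edgeR), 1 of 13 regulators, whose median was 0.27 against 0.00 over all genes. Of the lists that hold *Cxcl5*, *Cxcl10* and *Atf3*, limma-voom called 0 genes.

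Of the receptors, *Ackr1*, which venules use to display chemokines, could be tested and gave 0.14 (544 to 1569 counts). *Cxcr6*, the receptor of *Cxcl16*, did not pass the filter, with 0 to 1 counts in Ntg and 1 to 10 in *P301S* mice, values singled out after they were seen. The summed T cell markers were 0.561 to 1.11 CPM in Ntg and 0.351 to 3.14 CPM in *P301S* mice, and their part in the *Cxcr6* counts was not tested. The count called by edgeR was 0 of 1 receptor genes (0 at an unadjusted p under 0.05; DESeq2 1, limma-voom 0), 0 of 1 cytokine genes (*Il1a*, 1.38, adjusted p = 0.0510; 1 at an unadjusted p under 0.05; DESeq2 3, limma-voom 0) and 0 of 4 processing enzymes (1 at an unadjusted p under 0.05; DESeq2 1, limma-voom 0). DESeq2 was run without the filter on low counts and so covered more genes of these lists. Among the enzymes, *Adam10* had the highest level, at 92.0 CPM in Ntg and 92.6 CPM in *P301S* mice on average. *Adam17*, singled out after its values were seen, was at 0.51 (adjusted p = 0.0583 by edgeR).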

How the data were processed

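RNA-seq of primary mouse microglia (18 libraries in 6 groups of 3) and of hippocampi (7 Ntg and 6 *P301S* mice) was analysed from the authors' 2 tables of raw read counts per gene. The deposited counts carry no normalization. The submitters' processing notes name GRCm38, edgeR and limma; the aligner, the counting tool and the annotation are not given in the sources used here. Samples were grouped by their labels, and the genes and lists were chosen with earlier results of these data known.

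Counts were tested with edgeR 4.0.16 in R 4.3.3 (filterByExpr, TMM scaling, quasi-likelihood F test, Benjamini-Hochberg adjustment over the 13675 genes tested in microglia and 16453 in hippocampi), with all 6 microglial groups in 1 fit. Calls needed a log2 fold change beyond 1 in microglia or 0.5 in hippocampi, with an adjusted p below 0.05. The steps were tested on simulated data. Values are named for the 4 chemokines, for the 3 genes most like each, and for at most 4 genes per list and experiment, those with the largest log2 fold change among the called or, with none called, the one with the highest level; other names are given as chosen after their values were seen. Alternatives were DESeq2 1.42.0, limma 3.58.1 (voom), RLE scaling, no filter on low counts, a fit of the compared groups alone, no minimum fold change, a replicate block, sex as a covariate, a microglial marker covariate and leaving out each library. Hippocampal libraries were made by a 3' method, so that a gene's counts there do not depend on its length, and levels are compared within a gene and an experiment. Promoter sequences came from RefSeq (GRCm38.p6; 3 of the 4 genes matched, without *Cxcl16*) and gene positions, 3' UTRs and transcripts from the GENCODE annotation of GRCm38. Figures were drawn with matplotlib 3.10.9.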

Additional observations from a re-analysis of the deposited data

Results flagged for a closer look

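The response of *Cxcl3* to HT-DNA differed between the genotypes by 3.35 (SE 0.42) on the log2 scale, taken as the *Cgas*-/- response minus the WT response. It is listed because the 3 HT-DNA libraries lay below all vehicle libraries in WT cells and above all vehicle libraries in *Cgas*-/- cells. The difference was not tested, since the WT libraries were used to choose the genes.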

How the results depend on the processing

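Of 45 log2 fold changes of the 4 chemokines, 6 changed sign under an alternative, each smaller than its SE. *Cxcl16* with HT-DNA in *Cgas*-/- cells was -0.0192 to 0.0573 with 1 library left out, lowest without HT-DNA replicate 2, and in WT cells it was -0.02 without HT-DNA replicate 3. The *Cgas*-/- minus WT difference with tau was 0.17 for *Cxcl1* without WT tau replicate 1 and 0.01 for *Cxcl3* without WT tau replicate 3. The genotype difference in the HT-DNA response was -0.05 for *Cxcl2* without WT HT-DNA replicate 2 and -0.04 for *Cxcl16* with the compared groups alone. Among counts of genes called, without a minimum fold change the numbers were 3829 (tau, WT), 6488 (HT-DNA, WT), 2282 (tau, *Cgas*-/-), 180 (HT-DNA, *Cgas*-/-) and 2260 (tau against HT-DNA, *Cgas*-/-). The 3 genes called with HT-DNA in *Cgas*-/- cells became 25 without the filter on low counts, 8 with the compared groups alone and 0 to 6 with 1 library left out. In hippocampi, the 223 genes called became 700 with DESeq2, 11 with limma-voom, 126 with sex as a covariate, 8 with the microglial marker covariate and 14 to 652 with 1 mouse left out. The single chemokine called with HT-DNA in *Cgas*-/- cells became 2 without a minimum fold change, and 0 to 1 with 1 library left out. The 2 called with tau against HT-DNA became 3 without a minimum fold change and 1 to 2 with 1 library left out. These counts include *Cxcl1*, which passed the filter through the groups where it was high. The 1 called in hippocampi became 0 with limma-voom, 0 with the marker covariate and 0 to 1 with 1 mouse left out. *Cxcl2* with tau against HT-DNA in *Cgas*-/- cells passed the adjusted p without the filter on low counts (0.32, adjusted p = 0.0241 by edgeR). The cause of these shifts was not tested. Low counts limit *Cxcl1* in every group and the hippocampal ELR chemokines.

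Replicate numbers did not pair the microglial libraries: deviations from the group means correlated by -0.0850 to 0.0823 between libraries of the same number and by -0.0797 to 0.104 between other libraries. With a replicate block, 3 (with *Cxcl1*), 1 and 2 (with *Cxcl1*) chemokines were called in the 3 *Cgas*-/- comparisons, as without it, and *Cxcl3* with HT-DNA was at 1.22 (adjusted p = 0.00951 by edgeR).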
